A study of Mus musculus with 8 samples.

Results

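The genes described here are those that build and regulate microtubules: the alpha, beta and gamma tubulins, the gamma tubulin complex, the stathmins, tau, the tubulin folding cofactors and the collapsin response mediators. They were chosen by a pattern of gene symbols, without use of any measured value, and 38 of the 23278 genes in the tables matched it. The data are RNA-seq of 8 laser-captured libraries of lumbar spinal cord, from mice of the FVB/N strain on postnatal day 1. Motor neurons of the ventral horn and white matter glia were taken from WT mice and from mice of the genotype SMN2+/+;SMNΔ7+/+;Smn-/-, a model of spinal muscular atrophy (SMA). These mice lack mouse Smn in every cell, and carry human SMN2 and a human transgene without exon 7, so any effect in motor neurons cannot be told apart from an effect of the other cells. Each of the 4 groups (WT motor neurons, SMA motor neurons, WT white matter and SMA white matter) held 2 libraries. The labels do not say whether the libraries of a group came from separate animals, so a p-value reflects just the spread among these libraries.

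Microtubules are hollow polymers of alpha and beta tubulin pairs, and axons and dendrites depend on them for shape and for cargo transport. Mammals express several tubulin isotypes that differ mostly at the carboxy-terminal tail, where motors, microtubule-associated proteins and modifying enzymes bind. New microtubules are nucleated by gamma tubulin, folding of the alpha and beta pair needs dedicated cofactors, stathmins bind free tubulin, and tau binds the polymer along axons.

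Levels are given in RPKM, a read count divided by the length of the gene model and by library size. By the size of its steps, the scale of a library stood for 77.5 to 102.8 M reads, and a single read in 1 kb of gene model for 0.00972 to 0.0129 RPKM. The ribosomal RNA gene Rn45s made up 19.4 to 33.4% of the RPKM sum. Smn1 had 6.82 and 2.93 RPKM in WT motor neurons, 5.30 and 14.3 in WT white matter and 0 in all 4 SMA libraries. The captures were checked against marker genes. The summed RPKM of 7 motor neuron genes was 535 to 637 in motor neuron libraries and 6.90 to 19.1 in white matter, and that of 6 myelinating oligodendrocyte genes was 39.5 to 111 against 1699 to 4452. Xist was above 1 RPKM in the replicate 1 library of every group and in no replicate 2 library. The SMA motor neuron pair was the least alike, with a median absolute log2 difference between its libraries of 0.52 over all tested genes, against 0.28 to 0.34 in the other groups.

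Because the makeup of the beta tubulin pool differed between the regions, the coding ends of the 6 abundant beta tubulin genes are shown first. Each line gives the last 90 coding bases with the stop codon, 5′ to 3′ on the coding strand, from GENCODE M21 transcripts. Capitals mark bases that differ from Tubb5 or are not aligned to it.
Tubb5: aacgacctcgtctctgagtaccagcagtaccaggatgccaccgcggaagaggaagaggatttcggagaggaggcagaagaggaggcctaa
Tubb4a: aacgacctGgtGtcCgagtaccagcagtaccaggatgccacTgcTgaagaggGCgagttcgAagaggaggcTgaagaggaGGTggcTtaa
Tubb3: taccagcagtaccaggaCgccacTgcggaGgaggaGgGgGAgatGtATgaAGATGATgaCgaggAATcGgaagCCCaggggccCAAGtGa
Tubb2a: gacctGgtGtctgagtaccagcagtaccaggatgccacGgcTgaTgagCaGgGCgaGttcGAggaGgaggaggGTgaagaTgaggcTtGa
Tubb2b: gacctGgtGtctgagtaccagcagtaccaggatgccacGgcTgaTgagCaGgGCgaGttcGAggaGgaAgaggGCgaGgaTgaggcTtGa
Tubb4b: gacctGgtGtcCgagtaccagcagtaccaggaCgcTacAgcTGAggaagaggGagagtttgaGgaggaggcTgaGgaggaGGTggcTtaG
All 6 stretches lie in exon 4 of 4. In GRCm38 the Tubb3 end is at chr8:123421593-123421682 on the plus strand, and the Tubb4a end is at chr17:57080690-57080779 and the Tubb5 end at chr17:35834982-35835071 on the minus strand. The deposited values rest on mm9, so these positions do not transfer to the authors' gene models. Tubb3 had the most capitals, 30 of 90, and Tubb4a the fewest, 13. Over the whole coding sequence Tubb2a and Tubb2b were 96.5% identical, whereas Tubb3, Tubb4a and Tubb5 shared 81.7 to 84.3% with each other.

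Near-identity limits the counting of reads. Of all 50-base windows in the transcript, 75.5% in Tuba1a, 83.1% in Tuba1b, 61.0% in Tuba1c, 49.6% in Tubb2a, 39.3% in Tubb2b and 55.5% in Tubb4b also occur in transcripts of other genes. For Tubb3 no window was shared, and for Tubb4a and Tubb5 0.184% and 0.115% were. How reads with several matches were counted is not given in the sources used here, so the split among Tuba1a, Tuba1b and Tuba1c and between Tubb2a, Tubb2b and the pseudogene Tubb2a-ps2 is uncertain. In Tuba4a 47.7% of windows are shared with the overlapping gene Stk16, and in Tubgcp4 47.9% with Trp53bp1.

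A minimum of 1 RPKM in 2 or more libraries was met by 34 of the 38 genes and by 13948 genes in all, and these were tested. Tuba3a, Tuba3b and Tubal3 were at 0 in all 8 libraries, where 3 reads in a gene of 1 kb would give 0.0292 to 0.0387 RPKM. Tubb1, the beta tubulin of platelets, was above 0 only in WT motor neuron replicate 2, at 0.0184 RPKM. A passing gene could owe its place to the region where it is high, so counts among the 34 are descriptions. Together the 38 genes made up 2.77 to 3.08% of the RPKM sum without Rn45s in motor neurons and 1.02 to 1.12% in white matter, with no overlap between regions. A total of 17 genes exceeded 100 RPKM in every motor neuron library. In white matter 6 did so in every library: Tuba1a, Tuba1b, Tuba1c, Tubb4a, Tubb5 and Dpysl2. Levels per library are shown in the plot of the 34 tested genes.

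**Figure D1:**
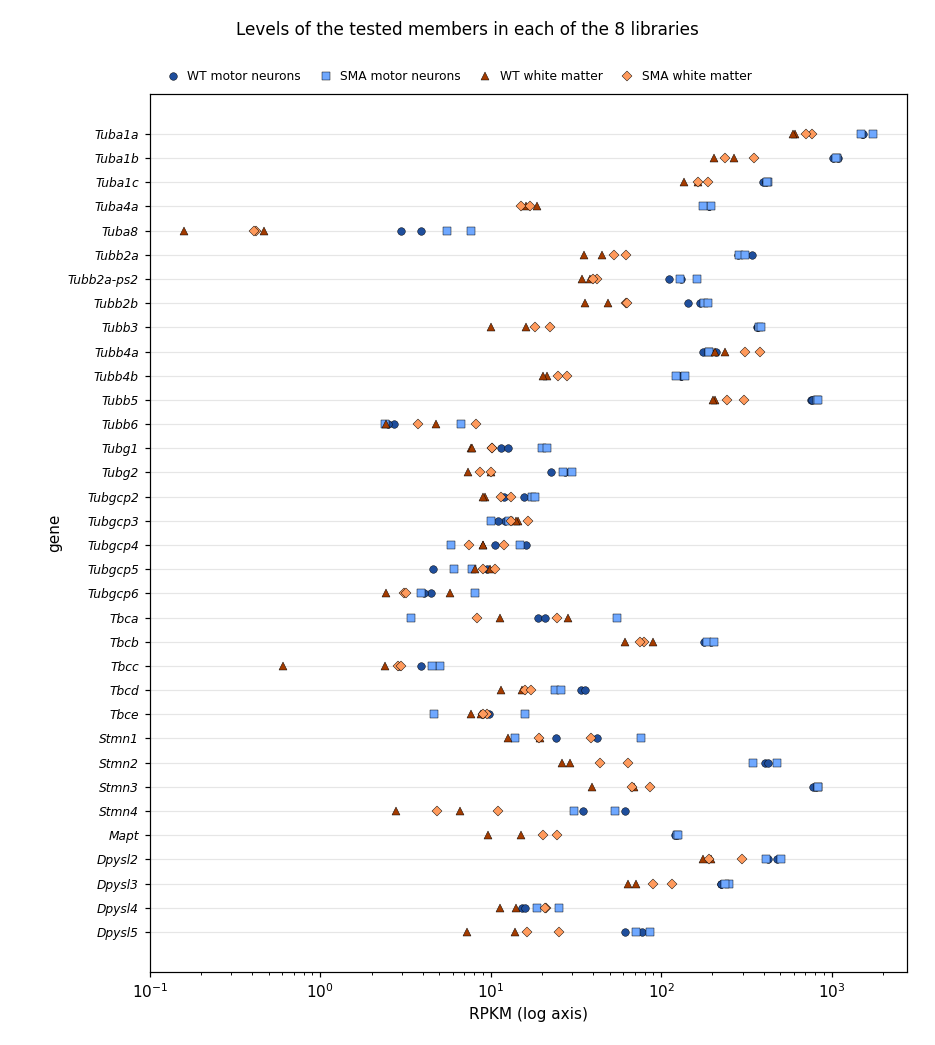
RPKM of the 34 tested genes (log axis) in each of the 8 libraries, with circles and squares for WT and SMA motor neurons and triangles and diamonds for WT and SMA white matter. Most tubulin, stathmin and mediator genes lie far to the right in motor neurons, Tubb4a lies highest in SMA white matter, and Tbca, Tbce and Stmn1 spread widely between the SMA motor neuron libraries.

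Motor neurons were compared with white matter first, in each genotype, by limma on log2(RPKM + 1), which understates the change of low genes. In WT mice 21 of the 34 tested genes were higher in motor neurons and 0 were lower at a Benjamini-Hochberg adjusted p under 0.05. Over all tested genes 18.6% were higher and 9.85% lower. The median log2 difference was 1.38 for these genes and 0.08 for all genes. In SMA mice 21 were higher and 1 was lower, against 13.6% and 17.2% of all genes, with medians of 1.25 and -0.24. Shared between the genotypes were 20 of the higher calls, Tbcd was called only in WT, and Tubb4a and Tubg1 only in SMA. Of the calls over all genes, 65.4% were higher in WT motor neurons on the deposited scale, and 55.6, 51.7 and 44.6% after median-of-ratios scaling, quantile normalization and scaling to an equal sum without Rn45s. In SMA the shares were 44.2% and then 53.8, 51.7 and 41.2%. Under each of these 3 scalings 21 of the 34 genes were again higher in each genotype.

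Alpha tubulin was dominated by Tuba1a in both regions. Its level was 1497 and 1537 RPKM in WT motor neurons, 1737 and 1495 in SMA motor neurons, 611 and 594 in WT white matter and 765 and 708 in SMA white matter. All motor neuron libraries lay above all white matter libraries, with a log2 difference of 1.33 ± 0.17 (SE; limma adjusted p = 0.000475) in WT and 1.13 ± 0.17 in SMA (0.00138). Tuba1b had 1021, 1083, 1074 and 1058 RPKM in the motor neuron libraries (WT, then SMA) and 268, 205, 350.2 and 238 in white matter. The regional estimate for Tuba1b was 2.16 ± 0.23 in WT (limma adjusted p = 0.000181), above that of Tuba1a, but the difference between the genes was not tested. Tuba1c, at 398 to 425 RPKM in motor neurons and 137 to 188 in white matter, was 2.69-fold higher in WT motor neurons by the ratio of means.

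Tuba4a, an alpha isotype whose product lacks the encoded terminal tyrosine, had the steepest regional difference of the alpha genes above 10 RPKM. It was at 192 and 189.9 RPKM in WT motor neurons and 197 and 177 in SMA motor neurons, against 16.05, 18.8, 15.1 and 17.1 in white matter. The 2 regions did not overlap, and the ratio of means was 10.96 in WT and 11.6 in SMA, with log2 differences of 3.38 ± 0.22 (limma adjusted p = 1.77e-05) and 3.46 ± 0.22 (3.89e-05). Tuba8 was a minor gene, at 2.98 to 7.71 RPKM in motor neurons and 0.159 to 0.466 in white matter, and was called in both genotypes. Of the 8 alpha genes, 5 were tested and all 5 were higher in motor neurons of both genotypes.

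As shares of the summed alpha tubulin RPKM, which do not depend on the scaling of a library, Tuba1a made up 47.9 ± 0.320% (SD, n = 2) in WT motor neurons and 59.9 ± 3.21% in WT white matter. Tuba4a made up 6.03 ± 0.198% and 1.74 ± 0.321%. In SMA libraries the corresponding shares were 49.0 ± 2.14% and 60.4 ± 3.39% for Tuba1a and 5.67 ± 0.0750% and 1.33 ± 0.266% for Tuba4a. Motor neurons thus had a lower share of Tuba1a and a higher share of Tuba4a in all libraries, and within a region the SMA and WT shares lay close together.

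Tubb3, the beta tubulin used as a marker of neurons, had the smallest p of the 38 genes in both genotypes. Its level was 366 and 372 RPKM in WT motor neurons, 377 and 386 in SMA motor neurons, 16.1 and 10.02 in WT white matter and 22.2 and 18.2 in SMA white matter. The ratio of means was 28.2 in WT and 18.9 in SMA, and the log2 differences were 4.75 ± 0.26 (limma adjusted p = 9.02e-06) and 4.18 ± 0.26 (3.10e-05). Tubb2a, abundant in neurons, had 341, 282, 285 and 309.8 RPKM in motor neurons (WT, then SMA) and 45.0, 35.2, 62.2 and 52.7 in white matter, a ratio of 7.77 in WT. Tubb2b, its near copy, had 169, 144, 178 and 187 against 48.5, 35.9, 62.1 and 63.0. Both copies were higher in motor neurons in every library, with Tubb2a ahead of Tubb2b in motor neurons and the levels close together in white matter.

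Tubb5, a broadly expressed isotype, was the most abundant beta tubulin in motor neurons. It was at 754, 763, 825 and 829.8 RPKM there and at 207, 201, 304 and 243 in white matter, a log2 difference of 1.89 ± 0.19 in WT (limma adjusted p = 0.000125) and 1.60 ± 0.19 in SMA (0.000387). Tubb4b, another broadly expressed isotype, ranged from 122 to 138 RPKM in motor neurons and from 20.3 to 28.2 in white matter, 6.25-fold by the ratio of means in WT. The pseudogene Tubb2a-ps2 ranged from 111 to 162 and from 34.6 to 42.3 RPKM, and reads of its parent genes may be counted in it. Tubb6 was low, at 2.41 to 8.15 RPKM over the 8 libraries, with overlap between regions.

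Tubb4a, an isotype enriched in brain and in myelinating oligodendrocytes, went the other way. It had 209 and 175 RPKM in WT motor neurons, 192 and 190.5 in SMA motor neurons, 237 and 206 in WT white matter and 382 and 308 in SMA white matter. The WT regions overlapped and the SMA regions did not. The log2 difference was -0.20 ± 0.21 in WT (limma adjusted p = 0.503) and -0.84 ± 0.21 in SMA (0.0142), and the difference between genotypes was -0.64 ± 0.29 (0.883). The SMA call ended under 4 of the 19 alternatives: median-of-ratios scaling (0.0658), no trend (0.0547), only the 4 compared libraries (0.0574) and without SMA white matter replicate 1 (0.0934). Over all 19 alternatives the adjusted p ran from 0.00103 to 0.0934. In WT the gene passed as lower after quantile normalization (-0.90, 0.00333) and after scaling to an equal sum without Rn45s (-0.62, 0.0322), with a range of 0.00333 to 0.895.

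The makeup of the beta tubulin pool differed between the regions in both genotypes. Tubb4a made up 9.99 ± 0.887% (SD, n = 2) of the summed beta tubulin RPKM in WT motor neurons and 40.6 ± 0.356% in WT white matter, and 9.49 ± 0.270% and 43.6 ± 0.531% in SMA. Tubb3 made up 19.2 ± 0.966% and 2.37 ± 0.576% in WT, and 18.9 ± 0.143% and 2.55 ± 0.00137% in SMA. Tubb5 was a large part of the pool in every library, at 38.2 to 41.6% in motor neurons and 34.0 to 39.3% in white matter. Tubb2a fell from a share of 14.4 to 17.3% in motor neurons to 6.89 to 7.77% in white matter, whereas the shares of Tubb2b overlapped. Together, Tubb4a and Tubb5 were the leading beta isotypes in white matter, and Tubb5 and Tubb3 in motor neurons. In these laser-captured libraries, fewer cells of a type and less RNA per cell cannot be told apart.

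**Figure D2:**
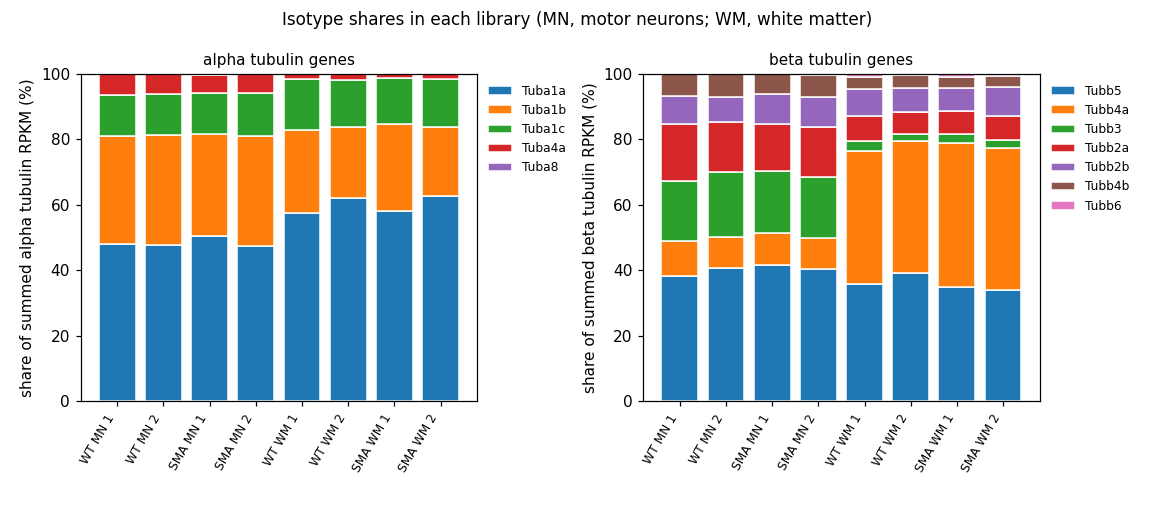
Share (%) of each gene in the summed RPKM of the alpha tubulin genes (left) and of the beta tubulin genes without the pseudogene (right), with a stacked bar for each of the 8 libraries. Tubb4a is 9.30 to 10.6% of beta tubulin in the 4 motor neuron libraries and 40.3 to 44.0% in the 4 white matter libraries, and Tubb3 is 18.5 to 19.9% and 1.96 to 2.78%.

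Gamma tubulin, the nucleating isotype, was encoded by both of its genes at low levels. Tubg2 had 27.3 and 22.5 RPKM in WT motor neurons, 30.2 and 26.4 in SMA motor neurons, 7.34 and 10.03 in WT white matter and 8.62 and 10.1 in SMA white matter. It was higher in motor neurons by 1.43 ± 0.28 on the log2 scale in WT (limma adjusted p = 0.00471) and 1.502 ± 0.28 in SMA (0.00404). Leaving out replicate 1 of the WT motor neurons ended the WT call (0.0573), the highest of its alternatives, which began at 0.00169. Tubg1, the ubiquitous copy, had 11.5, 12.7, 19.9 and 21.3 RPKM in motor neurons and 7.62, 7.79, 10.1 and 10.1 in white matter. Its groups did not overlap between regions in either genotype, yet the test passed only in SMA, at 0.95 ± 0.26 (limma adjusted p = 0.0232), against 0.59 ± 0.26 in WT (0.127). The SMA call was lost with only the 4 compared libraries (0.0900) and without SMA white matter replicate 1 (0.0960) or replicate 2 (0.0956) in a range from 0.0126 to 0.0960, and the interaction did not pass (0.36 ± 0.37, 0.890).

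The gamma tubulin complex genes Tubgcp2, Tubgcp3, Tubgcp4, Tubgcp5 and Tubgcp6, which form the ring that templates a microtubule, were low in both regions. Over all libraries they ranged from 2.43 RPKM (Tubgcp6, WT white matter) to 18.2 (Tubgcp2, SMA motor neurons). In both genotypes the regions did not overlap for Tubgcp2, higher in motor neurons, and for Tubgcp3, lower there. Tubgcp4 lay apart only in WT (higher), and Tubgcp5 (lower) and Tubgcp6 (higher) only in SMA. None of the 5 passed in either genotype, and their log2 differences ran from -0.38 to 0.53 in WT and from -0.45 to 0.69 in SMA. With 2 libraries a group, a log2 difference of this size could have gone undetected. The 95% intervals in WT reached from -1.19 (Tubgcp5) to 1.46 (Tubgcp4).

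The tubulin cofactors Tbca to Tbce fold and join the alpha and beta chains. Tbcb, which takes up folded alpha tubulin, was at 178, 197, 186 and 204 RPKM in motor neurons and 90.1, 61.4, 78.8 and 75.2 in white matter, with log2 differences of 1.32 ± 0.23 in WT (limma adjusted p = 0.00273) and 1.33 ± 0.23 in SMA (0.00301). Tbcd, which takes up beta tubulin, was at 33.7 and 35.7 in WT motor neurons, 23.8 and 26.0 in SMA motor neurons, 15.4 and 11.4 in WT white matter and 15.95 and 17.2 in SMA white matter. It passed in WT (1.32 ± 0.26, limma adjusted p = 0.00462) and not in SMA (0.56 ± 0.26, 0.130), and the difference between genotypes did not pass (0.883). No regional difference in Tbce, which also takes up alpha tubulin, was detected, at 8.85 and 9.84 RPKM in WT motor neurons and 8.74 and 7.67 in WT white matter. In SMA motor neurons Tbce was at 15.8 and 4.65, and in SMA white matter at 9.52 and 9.03. Without SMA motor neuron replicate 1 it passed as lower in SMA motor neurons (-0.86, 0.0496), and without replicate 2 it was 0.71 (0.102), in a range of adjusted p from 0.0496 to 0.986. Tbca showed the widest spread, with 54.9 and 3.40 RPKM in SMA motor neurons. Tbcc was low, at 0.606 to 5.05 RPKM, and did not pass.

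Stathmins bind and sequester tubulin pairs and are regulated by phosphorylation. Stmn2, a growth-associated stathmin of axons, had 404 and 425 RPKM in WT motor neurons, 475 and 345 in SMA motor neurons, 29.2 and 26.3 in WT white matter and 43.5 and 64.2 in SMA white matter. The ratio of means was 14.9 in WT and 7.62 in SMA, with log2 differences of 3.85 ± 0.26 (limma adjusted p = 1.83e-05) and 2.91 ± 0.26 (0.000105). Stmn3 was the most abundant stathmin, at 809.7, 777, 832 and 826 RPKM in motor neurons and 69.3, 39.5, 67.5 and 85.9 in white matter, and differed by 3.90 ± 0.27 in WT (limma adjusted p = 2.07e-05). Both genes stood far apart between the regions in every library. Stmn4 followed at a lower level, with 61.2, 34.9, 53.7 and 30.8 RPKM against 6.61, 2.78, 11.01 and 4.81, and its SMA call (2.32 ± 0.49, limma adjusted p = 0.00690) was lost without SMA white matter replicate 2 (0.0641, range 0.000739 to 0.0641).

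Stmn1, the stathmin of dividing and immature cells, did not pass in either genotype. It was at 42.2 and 24.3 RPKM in WT motor neurons, 76.2 and 13.8 in SMA motor neurons, 12.7 and 19.4 in WT white matter and 38.7 and 19.3 in SMA white matter. The SMA motor neuron libraries lay on both sides of the SMA white matter libraries. The SMA difference was 0.25 ± 0.67, -0.93 without SMA motor neuron replicate 1, 1.44 without replicate 2 (which passed, limma adjusted p = 0.0361, range 0.0361 to 0.877) and -0.23 without SMA white matter replicate 2. In WT it passed only with the 4 compared libraries alone (0.99, 0.0357, range 0.0357 to 0.686). Of the Stmn1 windows 36.5% occur elsewhere, mostly in the processed pseudogene Gm11223.

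Mapt, which encodes tau, was at 123 and 121 RPKM in WT motor neurons, 124 and 125 in SMA motor neurons, 15.0 and 9.68 in WT white matter and 24.5 and 20.2 in SMA white matter. The 4 motor neuron libraries lay close together. In white matter each SMA library exceeded each WT library, as for 39.7% of all tested genes on the deposited scale. The regional log2 difference was 3.23 ± 0.26 in WT (limma adjusted p = 4.54e-05) and 2.43 ± 0.26 in SMA (0.000258), or 9.88-fold and 5.57-fold by the ratio of means.

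The collapsin response mediators bind tubulin pairs and act in axon growth. Dpysl2, which promotes microtubule assembly, was the highest of them, with 478, 425, 503 and 414 RPKM in motor neurons and 195, 177, 298 and 192 in white matter. It passed in WT (1.28 ± 0.24, limma adjusted p = 0.00377) and in SMA (0.93 ± 0.24, 0.0175), and its SMA call ended under 4 alternatives, at 0.0527 with no filter, 0.0543 with no trend, 0.0717 with only the 4 compared libraries and 0.115 without SMA white matter replicate 2, with a lowest value of 0.00646. Dpysl3 had 225, 224, 251 and 238 RPKM against 71.4, 63.7, 115 and 89.2. Dpysl5 was lower but steeper, at 77.5, 61.5, 85.4 and 70.9 against 13.9, 7.30, 25.2 and 16.2, a ratio of 6.55 in WT. Dpysl4 had 15.3, 16.0002, 25.3 and 18.7 RPKM in motor neurons and 11.3, 14.1, 21.1 and 20.9 in white matter, and was not called in either genotype (limma adjusted p = 0.472 in WT and 0.905 in SMA).

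**Figure D3:**
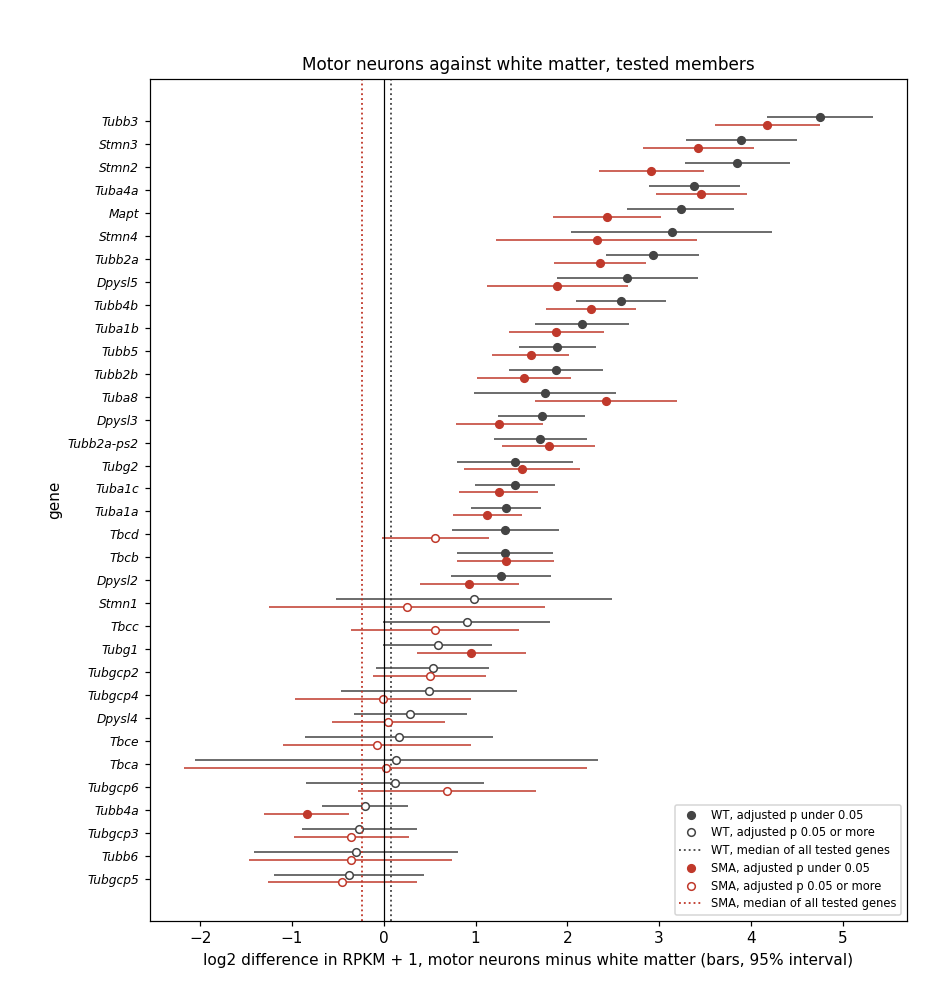
Log2 difference in RPKM + 1 between motor neurons and white matter for the 34 tested genes, in WT (grey) and SMA (red), with 95% intervals, filled points at an adjusted p under 0.05 and dotted lines at the median of all tested genes. Tubb3, Stmn3, Stmn2 and Tuba4a lead on the right, and Tubb4a is the filled SMA point on the left at -0.84.

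The deposited tables list the classical microtubule-associated proteins other than tau under older symbols beginning with Mtap, which the symbol pattern does not reach. They were read through RefSeq synonyms. Mtap1b, an axonal protein of growing neurons, had 688, 604, 676 and 509.8 RPKM in motor neurons (WT, then SMA) and 96.8, 83.8, 169 and 109.7 in white matter, with a log2 difference of 2.82 ± 0.25 in WT (limma adjusted p = 7.63e-05). Mtap1a, found mostly in mature dendrites and axons, was at 128 ± 11.9 (SD, n = 2) in WT motor neurons and 23.2 ± 6.97 in WT white matter, and Mtap6, which stabilizes microtubules against cold, at 59.3 ± 13.9 and 4.39 ± 0.952. All 3 passed in both genotypes. Mtap2, a dendritic protein, did not pass in either genotype and was at 63.9 ± 3.84 and 44.0 ± 0.399 in WT. Nor did Mtap4, a broadly expressed protein, at 42.3 ± 2.78 and 42.3 ± 6.29 in WT, although in SMA it passed as lower after quantile normalization (-0.77, 0.0283) and without SMA motor neuron replicate 1 (-0.91, 0.0306), in a range of adjusted p from 0.0283 to 0.477. Mtap7, a kinesin cofactor, was the only one of these 6 called as higher in white matter, with 0.919, 0.0633, 0.0981 and 0.577 RPKM in motor neurons and 5.14, 1.83, 8.55 and 4.43 in white matter. It was lower in motor neurons in SMA as well (-2.45, 0.00612; 0.0566 without SMA white matter replicate 1), and its WT call (-1.54 ± 0.50, limma adjusted p = 0.0450) ended under 9 of the 19 alternatives, with adjusted p from 0.0232 to 0.268.

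Other genes of the pathway were read from 6 lists without the 38 genes, against the same background shares. Of 29 tested microtubule-binding genes, the Mtap genes included, 13 passed as higher and 4 as lower in WT motor neurons, and 11 and 7 in SMA. Crmp1, a further collapsin response mediator, had the smallest p there, at 183 ± 4.05 RPKM (SD, n = 2) in WT motor neurons and 17.3 ± 2.46 in WT white matter. Of 17 plus-end binders 8 were higher and 0 lower in WT, and 2 and 2 in SMA, led by Mapre3, an end-binding protein enriched in neurons, at 111 ± 4.14 and 16.7 ± 5.23. The spectraplakin Dst followed in WT, with 37.3 ± 4.79 RPKM against 10.1 ± 2.07 in white matter, and in SMA the next was Slain1, which was lower there at 6.45 ± 2.17 against 21.1 ± 0.291. Of 9 severing enzymes and minus-end binders 2 were higher and 0 lower in WT, and 1 and 1 in SMA, with the minus-end binder Camsap3 higher in both (23.3 ± 2.05 and 2.98 ± 0.265 RPKM in WT). Its relative Camsap1 was called in WT, at 13.4 ± 2.05 and 5.70 ± 0.0600 RPKM, and the severing enzyme subunit Katna1 was the lower call in SMA, at 1.04 ± 0.575 and 3.98 ± 2.32. The counts of these 9 genes, and of the plus-end binders in SMA, lay near the shares of all tested genes.

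Enzymes that modify tubulin did not all move the same way. Of 19 tested, 7 passed as higher and 1 as lower in WT motor neurons, and 4 and 2 in SMA. Over all tested genes 18.6% were higher and 9.85% lower in WT, and 13.6% and 17.2% in SMA. Sirt2, a tubulin deacetylase of myelinating glia, was the lower call in WT, at 65.1 ± 1.42 RPKM (SD, n = 2) in motor neurons against 425 ± 144 in white matter. It was lower in SMA as well, at 72.7 ± 15.6 and 679 ± 253. Ttll1, a polyglutamylase, was higher, at 45.5 ± 7.76 and 10.1 ± 1.74 in WT. Of 17 tubulin folding helpers (the chaperonin and prefoldin subunits and related genes), 4 were higher and 0 lower in WT, and 4 and 1 in SMA, with Pfdn4 (log2 difference 1.85 ± 0.33) and Cct7 (0.97 ± 0.22) leading in WT and Pfdn2 (1.38 ± 0.28) and Pfdn4 (1.58 ± 0.33) in SMA. Of 16 nucleation genes, 0 were higher and 2 lower in WT, where 9.85% of all genes were lower, and 0 and 6 in SMA, where 17.2% were. Cdk5rap2, which anchors the gamma tubulin complex at centrosomes, was at 2.12 ± 0.699 RPKM in WT motor neurons and 10.9 ± 0.0390 in WT white matter. Nedd1, which targets the complex, was the other WT call (-1.21 ± 0.39, limma adjusted p = 0.0438), and Haus1, an augmin subunit, came next after Cdk5rap2 in SMA (-1.80 ± 0.38, 0.00720).

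SMA was then compared with WT within each region. Data were simulated with 200 changed genes and with the spread of each gene pooled over the 4 groups. There the fit recovered 2.99% of genes with a log2 change of 1 in SMA motor neurons, and 48.1% at 2. In motor neurons 0 of the 34 genes passed at an adjusted p under 0.05 by limma, against a background of 0% over all 13948 genes, and 2 of the 34 and 609 of all genes had an unadjusted p under 0.05. In white matter 0 passed as well, against 0% of all genes, with 9 and 880 at an unadjusted p under 0.05. The difference of the SMA effect between the regions also gave 0 calls (0% of all genes; 1 and 693 unadjusted), as did the comparison over both regions (0%; 7 and 836). The smallest adjusted p among the genes described here was 1.00, 0.727, 0.883 and 0.761 in these 4 comparisons.

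In motor neurons none of the abundant tubulins passed between the genotypes. Tuba1a, Tuba1b, Tuba1c, Tuba4a, Tubb2a, Tubb3, Tubb4a and Tubb4b had ratios of SMA to WT means between 0.955 (Tubb2a) and 1.07 (Tuba1a). Tubb5 (1.09) and Tubb2b (1.17) were above that range. Each SMA library exceeded each WT library for Tubb5, Tubb2b, Tubb3 and Tuba1c, as for 12.7% of all tested genes. The ratio was 1.02 for tau, 0.991 for Stmn2 and 1.05 for Stmn3. The 95% interval of the log2 difference was -0.52 to 0.62 for Tubb3, -0.60 to 0.54 for Stmn2 and -0.56 to 0.61 for Mapt, so changes within these bounds cannot be told apart from none. Over the 34 genes the median log2 difference was 0.05, against -0.05 over all genes.

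The genes with the smallest p in SMA motor neurons were of low abundance. Tubg1 was at 19.9 and 21.3 RPKM in SMA and 11.5 and 12.7 in WT, a log2 difference of 0.72 ± 0.26 (limma adjusted p = 1.00), and 1.70-fold by the ratio of means. Tuba8 was at 7.71 and 5.55 against 3.89 and 2.98 (0.78 ± 0.35), and Dpysl4 at 25.3 and 18.7 against 15.3 and 16.0002 (0.45 ± 0.27). For these 3 genes both SMA libraries lay above both WT libraries, without passing the test. Tbcd lay the other way, at 23.8 and 26.0 against 33.7 and 35.7 (-0.46 ± 0.26). Both SMA libraries lay above both WT libraries for 12 of the 34 genes (background 12.7%) and below for 1, Tbcd (background 15.5%). In the same libraries the summed RPKM of 6 microglial genes was 72.6 and 79.2 in SMA and 21.9 and 27.5 in WT, and for all 6 genes both SMA libraries lay above both WT libraries. Of 6 myelinating oligodendrocyte genes 4 did so, with sums of 77.6 and 111 against 39.5 and 62.6, and Mog at 0 in SMA motor neuron replicate 1. Motor neuron genes summed to 535 and 541 RPKM in SMA and 619 and 637 in WT. Of these 7 genes, 3 had both SMA libraries below both WT libraries and 0 had both above. Pan-neuronal genes summed to 2999.5 and 3365 against 3368 and 4320 (1 of 5 below and 0 above). Their ratio of SMA to WT means was 0.712 for Nefm and 0.824 for Nefl, but 0.986 for Syp, 1.04 for Snap25 and 1.13 for Syt1. Spinal interneuron genes summed to 200.9 and 349 RPKM in SMA and 185.5 and 190 in WT (2 of 6 above, 0 below). Astrocyte genes gave 86.7 and 166 against 90.5 and 106 (2 of 5 above, 0 below), with overlap. Oligodendrocyte precursor genes gave 58.6 and 61.7 against 57.4 and 63.6 (1 of 5 above, 1 below). Meningeal fibroblast genes gave 1.85 and 10.4 against 0.775 and 0.854 (1 of 3 above). Sums of endothelial genes (1 of 3 above) and dividing cell genes (0 of 5) overlapped. The part of these cells in the values was not tested.

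In white matter most of the genes were higher in SMA on the deposited scale. The log2 difference was above 0 for 31 of the 34, but this was also so for 80.0% of all genes, whose median was 0.27 against 0.36 for these genes. After median-of-ratios scaling, quantile normalization or scaling to an equal sum without Rn45s, 20, 18 and 19 of the 34 were above 0. The median of all genes was then near 0. These scalings take out a shift shared by most genes, so they cannot show where that shift came from, and its cause was not tested. Both SMA libraries lay above both WT libraries for 19 of the 34 genes (background 39.7%) and below for 0 (background 4.17%). Relative to the median of all genes the differences of the leading genes were 0.63 for Stmn2, 0.56 for Mapt, 0.36 for Tubb4a and 0.31 for Dpysl3.

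The smallest p-values in white matter belonged to Stmn2, Mapt, Tubb4a and Dpysl3. Stmn2 was at 43.5 and 64.2 RPKM in SMA and 29.2 and 26.3 in WT, with a log2 difference of 0.91 ± 0.26 (limma adjusted p = 0.727). Mapt was at 24.5 and 20.2 against 15.0 and 9.68 (0.83 ± 0.26, the same adjusted p of 0.727). Tubb4a was at 382 and 308 against 237 and 206 (0.63 ± 0.21, also 0.727), and Dpysl3 at 115 and 89.2 against 71.4 and 63.7 (0.58 ± 0.21, 0.739). In all 4 genes both SMA libraries were above both WT libraries, and none passed. Marker genes of several cell types were read in the same libraries, against the 39.7% of all genes with both SMA libraries above both WT libraries. The summed RPKM of 5 pan-neuronal genes was 140.1 and 203.6 in SMA and 98.3 and 106.9 in WT, with 3 of the 5 above WT in both libraries. That of 6 spinal interneuron genes was 20.3 to 28.9 against 6.17 to 19.5 (2 of 6), and that of 7 motor neuron genes 8.81 and 19.1 against 6.90 and 9.40 (2 of 7), with overlap. Mnx1, a defining motor neuron gene, was at 0 in replicate 2 of both white matter groups, and Lhx5 at 0 in WT white matter replicate 2. The 6 microglial genes summed to 281 and 326.9 RPKM in SMA and 203 and 214 in WT, with 5 of 6 above WT in both libraries. For 6 myelinating oligodendrocyte genes the sums overlapped, at 2272 and 4452 against 1699 and 3543 (0 of 6). Meningeal fibroblast genes summed to 56.2 and 103.7 RPKM in SMA and 25.1 and 39.4 in WT (3 of 3), and endothelial genes to 15.3 and 24.8 against 7.97 and 11.3 (2 of 3). Astrocyte genes summed to 646 and 804 against 526 and 667 (3 of 5), and oligodendrocyte precursor genes to 322 and 438 against 263 and 328 (3 of 5). The part of these cells in the differences was not tested.

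Between the regions, the SMA effect differed most by p for Stmn2 (-0.94 ± 0.36 on the log2 scale, motor neurons minus white matter), Mapt (-0.80 ± 0.37) and Tubb4a (-0.64 ± 0.29), each with a limma adjusted p of 0.883. The median of all genes in this comparison was -0.33 on the deposited scale. Over both regions the smallest p-values belonged to Dpysl4 (0.57 ± 0.19), Tubg1 (0.54 ± 0.19), Tubb2b (0.40 ± 0.16) and Stmn2 (0.44 ± 0.18), with limma adjusted p-values of 0.761 for the first pair and 0.792 for the others. Both SMA libraries lay above both WT libraries in both regions for 10 of the 34 genes (background 5.91%): Dpysl3, Dpysl4, Mapt, Tbcc, Tuba1c, Tubb2b, Tubb3, Tubb5, Tubg1 and Tubgcp2. The white matter part of this count was read on the deposited scale, where the median of all genes was 0.27.

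**Figure D4:**
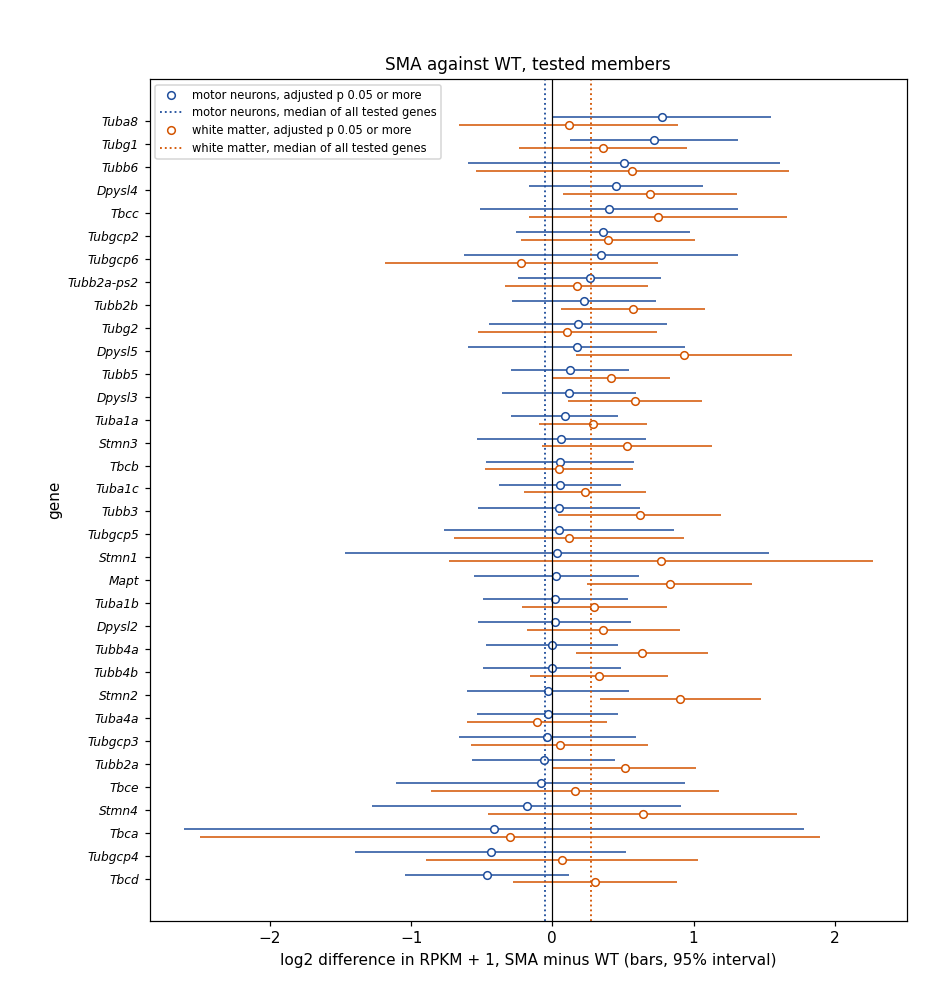
Log2 difference in RPKM + 1 between SMA and WT for the 34 tested genes, in motor neurons (blue) and white matter (orange), with 95% intervals and dotted lines at the median of all tested genes. No point is filled because none passed, and the white matter points centre on 0.36 while the motor neuron points centre on 0.05.

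The shares of the beta tubulin genes lay close in SMA and WT, though some did not overlap. Within motor neurons the SMA share of Tubb4a (9.30 and 9.68%) overlapped the WT share (9.37 and 10.6%), and that of Tubb3 (18.8 and 19.0%) lay inside the WT range of 18.5 and 19.9%. The share of Tubb2b there was 8.97 and 9.15% in SMA and 8.58 and 7.69% in WT, without overlap. In white matter the share of Tubb4a was 43.2 and 44.0% in SMA and 40.3 and 40.8% in WT, a gap larger than the spread of either pair, and that of Tubb5 was 34.0 and 35.0% against 35.8 and 39.3%. For Tubb4b the white matter share was 3.24 and 3.46% in SMA and 3.67 and 3.97% in WT. The shares of the other tested genes of this pool overlapped in each region. No test was run on the shares.

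Between the replicates of WT motor neurons the median absolute log2 difference of these genes was 0.12 against 0.28 over all tested genes. In SMA motor neurons it was 0.18 against 0.52, in WT white matter 0.32 against 0.34 and in SMA white matter 0.23 against 0.32. Differences above 1 between replicates were seen for 0, 5, 3 and 2 of the 34 genes in WT motor neurons, SMA motor neurons, WT white matter and SMA white matter, and for 4.74, 23.7, 7.05 and 7.02% of all tested genes. The genes described here are on average more abundant than the other tested genes, and the part of abundance in these values was not tested.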

How the data were processed

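The authors deposited, for each library, a table of RPKM values per gene symbol, per the file headers. The mouse genome build mm9 and the tools TopHat, bedtools and DESeq are named, per the submitters' processing notes. For versions, annotation, strand use and the counting rule, the sources used here give nothing. Values were not rescaled. The library scale was read from the steps of microRNA genes, of which 97.1 to 99.3% per library were whole reads within 0.02 of a read.

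Genes with at least 1 RPKM in at least 2 libraries (13948 of 23278) were tested with limma 3.58.1 in R 4.3.3 on log2(RPKM + 1). The model had 4 group means over all 8 libraries and eBayes with trend. The two-sided p-values were Benjamini-Hochberg adjusted over all tested genes (threshold 0.05). Errors of log2 differences are standard errors from this fit. The fit was first tested on simulated data, with 200 changed genes in 1 group. The spread of each gene was pooled over the 4 groups, although the SMA motor neuron libraries differed most. The fit recovered 2.09% (regions in WT) and 2.99% (SMA against WT in motor neurons) of genes with a log2 change of 1. At a change of 2 these shares were 45.7 and 48.1%, and at 4 they were 90.3 and 90.9%. Of the calls, 4.19 and 3.54% were false. Between the real WT regions 3967 genes were called, so the simulated recovery does not describe that comparison. Other steps ran in Python 3.11.15 (numpy 2.4.6; pandas 2.3.3; figures, matplotlib 3.10.9). Coding sequences came from GENCODE M21 (GRCm38), which held a transcript for all 38 genes. The coding ends of alpha tubulin genes are not reported here.

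The symbol pattern used no measured value, but the genes, lists and tests were chosen with earlier results of these data known. Named with values were the 10 highest by mean RPKM, the 8 called in each direction with the smallest p between regions, the 4 with the smallest p in each SMA comparison (3 for the difference between regions), a fixed set of classical members, and the 2 smallest p in each pathway list. Other members named were chosen after their values were seen. A total of 19 alternatives were tried: pseudocounts of 0.1 and 5 RPKM, no filter, at least 5 RPKM, 3 other scalings, a replicate block, no trend, robust eBayes, only the compared libraries, and each library left out.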

Additional observations from a re-analysis of the deposited data

Results flagged for a closer look

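Tbcd, the cofactor that takes up beta tubulin, had SMA libraries on opposite sides of the WT libraries in the regions, without passing the test in either (limma adjusted p = 1.00 and 0.804). Its level was 33.7 and 35.7 RPKM in WT motor neurons and 23.8 and 26.0 in SMA motor neurons, so that both SMA libraries lay below both WT libraries. In white matter it was 15.4 and 11.4 RPKM in WT and 15.95 and 17.2 in SMA, the reverse order. Both SMA libraries lay above both WT libraries for 39.7% of all genes in white matter, and relative to the median of all genes the white matter difference of Tbcd was 0.028 on the log2 scale. The difference of the SMA effect between the regions was -0.77 ± 0.37 on the log2 scale and did not pass the test (limma adjusted p = 0.883). On the deposited scale the median of all genes in that comparison was -0.33. Of the 34 tested genes, Tbcd was the one with both SMA libraries below both WT libraries in motor neurons, where 15.5% of all tested genes were so.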

How the results depend on the processing

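The number of called genes among the 34 kept within 1.5 times of its value in all 112 alternatives over the 6 comparisons (20 to 22 for the WT regions, 19 to 24 for the SMA regions and 0 for SMA against WT). Counts over all genes moved more. SMA against WT in motor neurons gave 1 call with no filter and 0 to 123 with a library left out (123 without SMA motor neuron replicate 1). White matter gave 1 with a pseudocount of 5, quantile normalization or only the 4 compared libraries, and 0 to 1 with a library left out. The difference between regions gave 0 to 17 with a library left out. Over both regions there were 2 calls with a pseudocount of 0.1, 3 after quantile normalization, 1 with a pseudocount of 5, at least 5 RPKM, sum scaling or robust eBayes, and 0 to 8 with a library left out. Calls between the WT regions (3967) ran from 2015 to 5333 with a library left out, and between the SMA regions (4295) from 2272 to 5539, with 2415 for only the 4 compared libraries. A lone library in a group was assumed to vary like the other groups. Signs turned, for uncalled genes, in WT for Mtap2 (-0.027, quantile), Mtap4 (-0.16, median-of-ratios; -0.53, quantile; -0.40, sum scaling; -0.06 without WT motor neuron replicate 1; -0.14 without WT white matter replicate 2; -0.14 to 0.16 with any library left out) and Tbce (-0.073, quantile; -0.22, sum scaling). In SMA they turned for Mtap2 (-0.071, quantile; -0.15 without motor neuron replicate 1; -0.029 without white matter replicate 2; up to 0.40), Stmn1 (-0.93 and -0.23, for the same libraries left out; up to 1.44) and Tbce (0.10, median-of-ratios; 0.072, quantile; 0.71 without motor neuron replicate 2; down to -0.86). The causes were not tested. Same-numbered replicates deviated together with correlations of 0.012 to 0.074, and the labels name no shared animal or batch, so the libraries were not treated as pairs, although Xist was above 1 RPKM in each replicate 1 library and in no replicate 2 library. With a replicate block 21 of the 34 genes were called in WT and 22 in SMA, 3848 and 4138 genes in all, and 0 in each SMA against WT comparison. Each group held 2 libraries, and the part of depth in these results was not tested. Low levels were those of Tuba8 in white matter (0.159 to 0.466 RPKM), Mtap7 in motor neurons (0.0633 to 0.919 RPKM) and Tbcc in WT white matter (2.40 and 0.606 RPKM).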
